A study of Mus musculus with 16 samples.

Results

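The comparison concerned 2 progenitor populations of the mouse mammary epithelium, ductal progenitors and alveolar progenitors, sorted from the same animals. It used every array whose source label named one of those populations, 4 ductal and 4 alveolar, which together are 8 of the 16 arrays of the series. Each ductal array was set against the alveolar array of the same mouse, over both genotypes and in each genotype alone. A positive difference means a higher level in ductal progenitors.

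The series profiled 4 freshly sorted epithelial populations of the mammary gland on Affymetrix mouse expression arrays, in mice lacking Cpeb2, which encodes a cytoplasmic polyadenylation element-binding protein that controls translation of mRNAs, and in mice carrying the normal gene. Luminal cells were gated as Epcam high and CD49f low. Within that gate, Sca1 and CD49b separated 3 populations: cells with both antigens were the ductal progenitors, cells with CD49b but without Sca1 the alveolar progenitors, and cells with Sca1 but without CD49b the non-clonogenic luminal population. Myoepithelial cells, gated as Epcam low and CD49f high, were the other population. The groups used here were therefore ductal progenitors of Cpeb2 +/+ mice, ductal progenitors of Cpeb2 -/- mice, and the alveolar progenitors of both, with 2 mice of each genotype, called wild type 1 and 2 and knockout 1 and 2. All 4 mice were females of 10 weeks and 2 days, carried the strain label C57BL/6J 129, and carried Sox2-Cre +/+ in the genotype label whether or not Cpeb2 was lost, so the wild types share that label with the knockouts. Sox2-Cre acts in the early embryo and not in the mammary gland alone. Wild type 1 and knockout 1 had the same parents, and so did wild type 2 and knockout 2. No hormonal or other treatment was given, and the labels do not name the stage of the estrous cycle.

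The luminal layer of the mammary gland holds cells that carry the receptors for estrogen and progesterone and cells that lack them. Receptor-positive cells respond to the ovarian hormones and signal to their neighbours through secreted factors, whereas receptor-negative alveolar progenitors express the transcription factor Elf5 and the receptor Kit and give rise to the milk-secreting cells of pregnancy. Sca1 marks the receptor-positive side of the luminal layer, and CD49b, an integrin subunit, marks cells that form colonies. The 2 progenitor gates thus share CD49b and differ in Sca1.

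Each array gave a log2 value for 45141 probe sets, processed by the authors with RMA, and the 17097 genes measured by a probe set of their own were each represented by the probe set with the highest mean. Values below about 5.1, the lower quartile of all probe sets on an array, cannot be told from the background of the array. Differences are given on the log2 scale with their standard error from limma (a linear model with the mouse as a block, fitted on all 16 arrays), and a gene is said to have risen or fallen where its p-value, adjusted over all genes by the Benjamini-Hochberg method, was under 0.05. Where 4 values are listed they follow the order wild type 1, wild type 2, knockout 1 and knockout 2. The number of arrays limits the precision, and in sorted bulk samples a smaller share of cells of one type and less RNA per cell cannot be told apart.

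One library stood apart. The ductal array of wild type 1 correlated with the other ductal arrays at 0.947 to 0.980 over all genes, against 0.977 to 0.990 among the other 3. Its fibroblast genes were high. The mean level of the 11 fibroblast genes examined was 8.13 there, against 6.36 to 6.82 on the other ductal arrays and 5.88 to 6.16 on the alveolar arrays. Dermatopontin (Dpt), a matrix protein of fibroblasts, read 9.0, 5.55, 5.75 and 5.12 on the ductal arrays and 4.69, 4.44, 4.70 and 4.48 on the alveolar arrays. Some results are given with and without this library below, and the others include it.

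**Figure D1:**
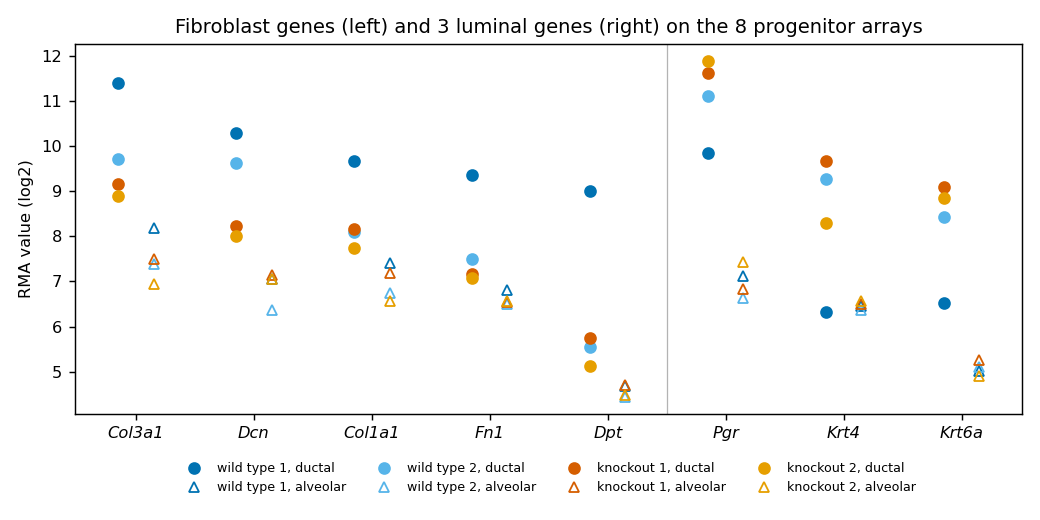
RMA values (log2) of 5 fibroblast genes (Col3a1, Dcn, Col1a1, Fn1 and Dpt) and 3 luminal genes (Pgr, Krt4 and Krt6a) on the 8 progenitor arrays, filled circles for ductal and open triangles for alveolar progenitors, coloured by animal. The ductal array of wild type 1 is the highest of the 8 for all 5 fibroblast genes and the lowest ductal array for Pgr, Krt4 and Krt6a. Luminal genes not drawn here do not all share that layout. For Foxa1 the same array is the highest ductal array, and for Cited1 and Wnt5a it is not the lowest.

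Cpeb2, the targeted gene, read 7.88, 8.00, 6.39 and 7.35 in ductal progenitors, 5.52, 5.53, 5.45 and 4.81 in alveolar progenitors and 8.33, 8.66, 6.42 and 7.67 in non-clonogenic luminal cells, and 5.41, 6.03, 5.25 and 4.71 in myoepithelial cells. The knockout arrays were lower than the wild-type arrays in all 4 populations, though in alveolar progenitors knockout 1 (5.45) was close to the wild types (5.52 and 5.53). In the Sca1-positive populations both knockouts stayed above the lower quartile. In alveolar progenitors and myoepithelial cells knockout 2 lay under it and knockout 1 just above it. No source used here says where the probe set lies relative to the deletion. Ductal progenitors carried more of the transcript than alveolar progenitors in each genotype, by 2.42 ± 0.40 in wild types and 1.74 ± 0.40 in knockouts. The other 2 probe sets of the gene also rose over both genotypes, by 1.74 ± 0.20 and 1.01 ± 0.23.

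The marker genes separated the 2 populations in the direction known for them. Pgr, the progesterone receptor, read 9.84, 11.11, 11.61 and 11.89 on the ductal arrays and 7.12, 6.63, 6.83 and 7.43 on the alveolar arrays. Every ductal array lay above every alveolar array, and the difference was 4.11 ± 0.29 (adjusted p = 4.94e-06), a 17.3-fold difference. Cited1, a co-activator of estrogen-responsive transcription, read 11.51, 10.39, 11.53 and 11.15 against 8.71, 6.00, 6.68 and 6.54, with the alveolar array of wild type 1 as the highest of the alveolar arrays, and differed by 4.16 ± 0.31 (adjusted p = 6.26e-06).

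Elf5, the ETS-family factor of alveolar fate, was lower in ductal progenitors, with 10.27, 9.13, 7.66 and 8.52 on the ductal arrays and 11.37, 11.61, 11.14 and 11.50 on the alveolar arrays (-2.51 ± 0.22, adjusted p = 2.01e-05). Kit, the receptor for stem cell factor, read 9.07, 9.0, 6.73 and 7.82 against 10.50, 11.02, 10.83 and 11.08 (-2.70 ± 0.16, adjusted p = 1.98e-06). No ductal array reached the level of any alveolar array for either gene. The ductal progenitors did not lack them, however. Kit lay at 4.41 to 4.67 in non-clonogenic luminal cells, below the lower quartile, and at 6.73 to 9.07 in ductal progenitors. For Elf5 and for Kit both knockout ductal arrays were lower than both wild-type ones, as they were for 22.4% of all genes.

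**Figure D2:**
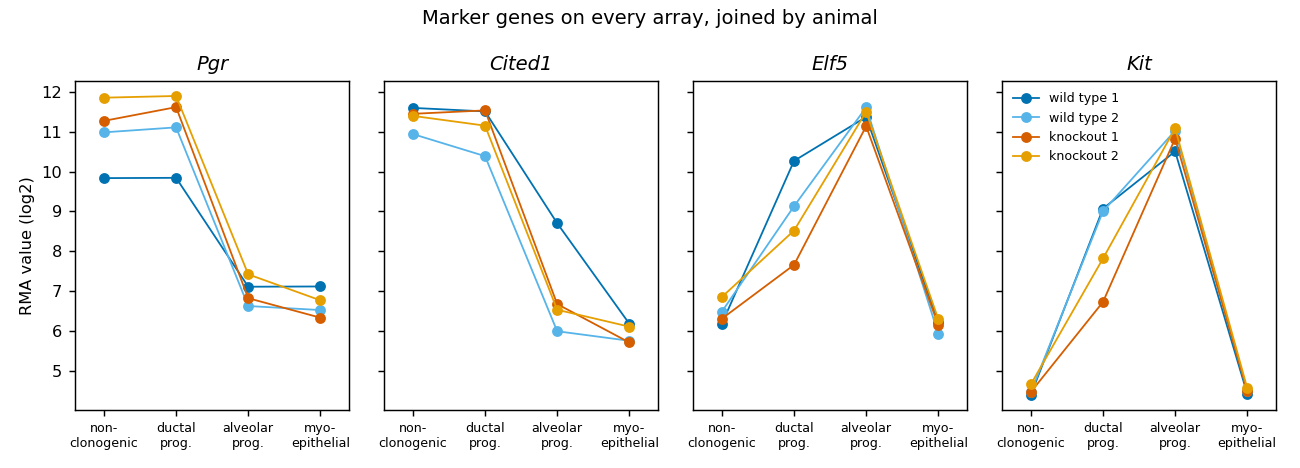
RMA values (log2) of the 4 marker genes on all 16 arrays, with 1 panel per gene and the 4 populations of each animal joined by a line. Pgr and Cited1 are as high in ductal progenitors as in non-clonogenic luminal cells, whereas Elf5 and Kit fall between the levels of non-clonogenic luminal cells and alveolar progenitors on every ductal array.

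The promoters of the 4 marker genes are shown from 250 bases before to 50 bases after the start site (RefSeq, GRCm38.p6), because these genes mark the 2 populations. Capitals mark every match, on either strand, to 4 short motifs. These were AGGTCA, one arm of an estrogen response element, then AGGAAG, the core bound by ETS factors, then AGATAA, bound by GATA factors, and last GTAAACA, bound by forkhead factors. No match of 1 motif overlapped a match of another in these windows.
Pgr promoter (chr9:8899583-8899882, plus strand): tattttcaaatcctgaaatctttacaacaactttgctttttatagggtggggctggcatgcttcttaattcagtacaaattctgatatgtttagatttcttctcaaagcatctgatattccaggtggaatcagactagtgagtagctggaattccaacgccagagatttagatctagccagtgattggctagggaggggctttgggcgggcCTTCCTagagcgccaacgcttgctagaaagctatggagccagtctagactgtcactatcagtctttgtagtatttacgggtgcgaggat
Cited1 promoter (chrX:102252132-102252431, minus strand): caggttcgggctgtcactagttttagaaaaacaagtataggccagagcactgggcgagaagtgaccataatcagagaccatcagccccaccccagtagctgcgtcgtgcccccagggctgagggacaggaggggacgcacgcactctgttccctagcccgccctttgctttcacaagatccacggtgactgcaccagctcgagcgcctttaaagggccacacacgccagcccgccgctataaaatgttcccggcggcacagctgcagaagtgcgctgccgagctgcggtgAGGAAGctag
Elf5 promoter (chr2:103411848-103412147, plus strand): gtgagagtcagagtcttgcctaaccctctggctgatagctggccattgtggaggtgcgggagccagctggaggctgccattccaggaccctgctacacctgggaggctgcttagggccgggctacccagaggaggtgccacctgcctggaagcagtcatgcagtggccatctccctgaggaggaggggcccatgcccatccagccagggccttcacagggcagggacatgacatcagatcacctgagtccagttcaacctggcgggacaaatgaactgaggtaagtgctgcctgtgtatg
Kit promoter (chr5:75574737-75575036, plus strand): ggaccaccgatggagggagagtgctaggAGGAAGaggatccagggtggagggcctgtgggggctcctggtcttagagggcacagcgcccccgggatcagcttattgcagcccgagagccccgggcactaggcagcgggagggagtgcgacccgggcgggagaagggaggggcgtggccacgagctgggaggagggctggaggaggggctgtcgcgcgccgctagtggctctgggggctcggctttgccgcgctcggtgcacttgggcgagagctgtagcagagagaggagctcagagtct
Pgr, Cited1 and Kit each held 1 match, to the ETS core, and Elf5 held none. The ETS core occurred in 35.1% of the 27025 promoters of this length, so a match to it is common. Among the genes with the largest differences described next, 11 of the 15 rises and 7 of the 15 falls had a promoter in the table. The arm of the estrogen response element was found in 2 of the 11 (18.2%) and 0 of the 7, against 16% of all promoters, and the ETS core in 3 of the 11 (27.3%) and 2 of the 7 (28.6%). These are counts of letters in a window and say nothing about binding.

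Over both genotypes, 3879 of 17097 genes (22.7%) differed between the populations, 2014 (11.8%) being higher and 1865 (10.9%) lower in ductal progenitors. The difference was at least 2-fold for 652 of the higher and 562 of the lower genes, and the median difference of all genes was 0.01. On 3421 genes (20%) the 4 ductal arrays did not overlap the 4 alveolar arrays. The 15 largest rises and the 15 largest falls among such genes are named here.

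The largest rise was that of Wnt5a, a ligand that acts mostly outside the beta-catenin branch of Wnt signalling, with 10.54, 10.52, 10.08 and 10.68 on the ductal and 5.51, 4.54, 6.32 and 5.39 on the alveolar arrays (5.01 ± 0.27, adjusted p = 1.17e-06). Prss23, a serine protease, read 9.29, 9.27, 9.51 and 8.66 against 4.73, 4.26, 4.46 and 4.34 (4.74 ± 0.20), and all 4 of its alveolar values lay under the lower quartile, so that this difference is bounded by the background of the array. Plac8 (4.72 ± 0.24), the ceramide synthase Cers6 (4.70 ± 0.25), the cysteine dioxygenase Cdo1 (4.55 ± 0.24), the fibrinogen chain Fgg (4.5 ± 0.32) and the angiotensin II receptor Agtr1a (4.43 ± 0.25) followed. The other rises among the 15 were Ctse (an aspartic protease), Kif5c (a kinesin), the noncoding RNA Snhg11, Slc35f3, Tlcd4, Fam43a, the chemokine Cxcl15 and the calpain Capn8, with differences between 4.20 and 4.40. Other probe sets gave smaller rises for Tlcd4 (1.18 ± 0.13) and Prss23 (3.03 ± 0.22 and 0.32 ± 0.10). For Wnt5a, Kif5c, Cxcl15 and Capn8 they gave 3.04 to 4.58. The alveolar array of wild type 1 was the highest of the 4 alveolar arrays for 9 of the 15 genes. Even there the gap to the ductal arrays remained wide, as for Tlcd4, with 8.05, 6.76, 6.60 and 6.74 on the alveolar arrays against 11.30 to 11.54 on the ductal arrays.

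The largest falls were smaller in size than the largest rises. Btn1a1, the butyrophilin of the milk fat globule membrane, led them with 7.99, 6.76, 7.97 and 9.42 on the ductal and 10.97, 10.03, 11.18 and 12.18 on the alveolar arrays (-3.06 ± 0.26, adjusted p = 1.53e-05). Ntn1, the secreted guidance protein netrin-1, read 7.35, 7.98, 7.80 and 8.39 against 10.67, 10.57, 11 and 11.03 (-2.94 ± 0.20, adjusted p = 3.98e-06). Also among the 15 were the carbonic anhydrase Car2 (-2.92 ± 0.17), the proton pump subunit Atp6v1b1 (-2.89 ± 0.17), the carriers Slc5a8 (-2.91 ± 0.21), Slc1a1 (-2.83 ± 0.16) and Slc5a1 (-2.75 ± 0.16), and the mucin Muc15 (-2.85 ± 0.15). The Wnt ligand Wnt5b (-2.86 ± 0.30), the fatty acid enzymes Fads1 (-2.75 ± 0.14) and Hacd1 (-2.74 ± 0.26), Cyp2d22, Plscr2, Tmem47 and the ubiquitin ligase Marchf3 completed the 15. The other probe sets of Ntn1 (-0.99 ± 0.13) and Slc5a1 (-0.93 ± 0.10) gave smaller falls. Those of Btn1a1, Slc1a1, Wnt5b, Fads1, Cyp2d22 and Tmem47 gave -2.82 to -1.71. For 11 of the 15 genes, both knockout ductal arrays were lower than both wild-type ductal arrays, as they were for 22.4% of all genes. Plscr2 was one of them, with 8.29, 7.36, 4.44 and 5.18 on the ductal arrays against 8.61, 9.60, 9.04 and 9.35 on the alveolar arrays.

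The named genes differed in where the ductal progenitors stood relative to the third luminal population. For the 15 largest rises, the mean ductal level was between 9.18 and 11.58, and it differed from that of non-clonogenic luminal cells by -0.55 to -0.04, with none of the 15 differences passing the test. For the 15 largest falls, the mean ductal level (5.46 to 8.29) exceeded that of non-clonogenic luminal cells by 0.75 to 2.70, and 11 of the 15 differences passed the test. Of all genes, 0.918% passed in that comparison, 0.866% as higher in ductal progenitors. The ductal arrays enter both of these comparisons.

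**Figure D3:**
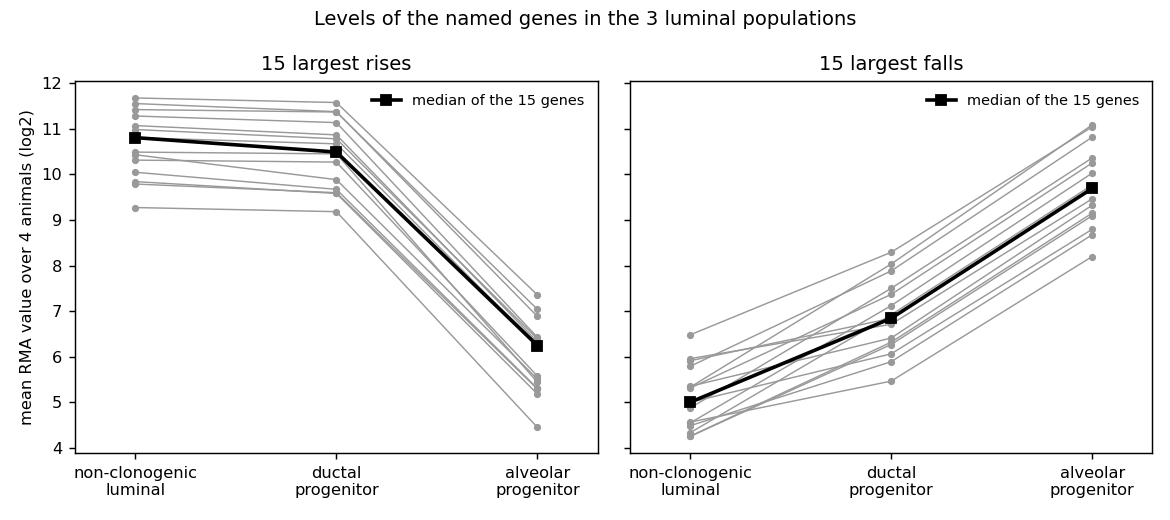
Mean RMA values (log2, n = 4 animals) of the 15 largest rises (left) and the 15 largest falls (right) in the 3 luminal populations, with grey lines for single genes and a black line for their median. The rises are level between non-clonogenic luminal cells and ductal progenitors and drop in alveolar progenitors, whereas the falls climb in 2 steps.

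Genes of hormone-sensing luminal cells were higher in ductal progenitors. Of 16 measured genes of that list, 13 rose and 0 fell, with a median difference of 2.61. Of all genes, 11.8% rose and 10.9% fell, and the counts of this and the later lists are to be read beside those shares. Esr1, the estrogen receptor, read 10.61, 11.15, 12.04 and 11.53 against 8.29, 7.88, 8.60 and 8.60 (2.99 ± 0.17, adjusted p = 1.37e-06). Foxa1, the pioneer factor that opens chromatin for it, read 10.93, 10.51, 10.39 and 10.48 against 7.61, 5.93, 7.29 and 6.49 (3.75 ± 0.25, adjusted p = 3.47e-06). In both cases the groups stood at least 2 log2 units apart. Prom1, which encodes the surface protein CD133, rose by 3.78 ± 0.15, the sodium pump subunit Fxyd2 by 3.58 ± 0.29 and the secreted glycoprotein Stc2 by 3.39 ± 0.33. Of the 3 genes that did not pass, Xbp1, a factor of secretory cells, was high in both populations (10.56 to 11.28 against 10.68 to 11.13; difference 0.02 ± 0.08). Without the ductal array of wild type 1, 13 genes of the list rose and the median was 2.94.

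The list of alveolar progenitor and milk genes ran the other way: 19 of 25 fell and 0 rose, with a median of -1.48. Sox10, a neural crest factor also found in mammary progenitors, read 8.33, 8.70, 8.04 and 8.23 on the ductal and 10.86, 10.90, 10.63 and 11.02 on the alveolar arrays (-2.53 ± 0.14, adjusted p = 1.17e-06). The AP-2 family factor Tfap2c read 8.83, 8.42, 7.30 and 7.80 against 9.91, 10.09, 10.20 and 10.32, with no overlap of the arrays (-2.04 ± 0.13). Aldh1a3, which makes retinoic acid, remained high in ductal progenitors at 9.79 to 10.56 and was higher still in alveolar progenitors at 11.93 to 12.60 (-1.99 ± 0.19). The lipopolysaccharide co-receptor Cd14 (-2.01 ± 0.18) and the apical mucin Muc1 (-1.92 ± 0.15) fell as well. Milk protein genes did not all pass the test. Lalba, the milk protein alpha-lactalbumin, read 6.01, 6.14, 6.13 and 7.98 on the ductal and 6.68, 6.61, 7.17 and 10.71 on the alveolar arrays, with the arrays of knockout 2 the highest in each population. It was lower in ductal progenitors in every animal but did not pass by limma (-1.23 ± 0.46, adjusted p = 0.0881).

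Of 45 luminal transcription factors measured, 12 rose and 20 fell. The forkhead genes did not move together. Foxa1 rose, whereas Foxc1 (-2.53 ± 0.18) and Foxi1 (-2.67 ± 0.14) fell. Foxi1, which in kidney and airway marks the cells that pump protons, read 5.11, 4.93, 5.38 and 5.43 on the ductal arrays and 7.28, 6.45, 8.62 and 9.18 on the alveolar arrays, where both knockout arrays were above both wild-type arrays. Myb, a factor of proliferating progenitors in blood, rose by 2.49 ± 0.23 from alveolar values under the lower quartile (4.09 to 5.04), and the homeobox gene Msx2 rose by 2.16 ± 0.19, as 8.36, 9.04, 8.90 and 9.22 against 6.60, 6.46, 6.93 and 6.88. Sox9, at 11.39 to 11.78 and 11.56 to 11.99, was among the factors with high levels in both populations that did not pass the test (-0.29 ± 0.13, adjusted p = 0.132).

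Paracrine signals that connect the luminal cells are known to run from hormone receptor-positive cells to their neighbours, with RANKL and Wnt4 as the progesterone-induced ligands. Of 15 genes of the progesterone and RANKL axis, 4 rose and 4 fell. Wnt4 read 9.01, 9.29, 9.63 and 10.04 on the ductal arrays and 7.91, 7.40, 7.32 and 7.26 on the alveolar arrays (2.02 ± 0.17, adjusted p = 1.69e-05). Tnfsf11, which encodes RANKL, lay at 5.14 to 5.32 in ductal and 5.13 to 5.37 in alveolar progenitors, close to the lower quartile, and its difference (-0.04 ± 0.10, adjusted p = 0.849) did not pass the test. Its receptor RANK, encoded by Tnfrsf11a, was lower in ductal progenitors, with 5.6, 5.78, 6.10 and 5.82 against 7.05, 7.40, 7.10 and 7.28 (-1.38 ± 0.14, adjusted p = 6.24e-05). The prostaglandin synthase Ptgs2 was lower in ductal progenitors (-2.55 ± 0.41) over both genotypes, from alveolar values of 7.26, 8.09, 10.16 and 8.71 to ductal values of 7.79, 5.61, 5.31 and 5.31, and in wild type 1 it was not lower in ductal progenitors.

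In the Wnt list, 6 of 36 genes rose and 10 fell. Wnt5a and Wnt4 were higher in ductal progenitors and Wnt5b in alveolar progenitors, where it read 10.19, 10.14, 10.49 and 10.64 against 8.54, 7.49, 6.72 and 7.24. Among the receptors, Fzd4 rose (2.04 ± 0.25), while Fzd1 (-1.50 ± 0.14), Fzd7 (-1.41 ± 0.28) and the R-spondin receptor Lgr6 (-1.92 ± 0.15) fell, as did the Wnt inhibitor Sfrp2 (-1.94 ± 0.28).

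In the Notch list, 3 of 21 genes rose and 6 fell, against 11.8% and 10.9% of all genes, so that the rises were near the general share. The ligand Jag1 read 9.04, 8.53, 9.29 and 8.95 on the ductal and 8.02, 7.34, 7.53 and 7.16 on the alveolar arrays (1.44 ± 0.13, adjusted p = 2.85e-05), and Lfng, a glycosyltransferase that modifies Notch receptors, rose by 1.44 ± 0.13. The receptors Notch1 (-0.96 ± 0.19) and Notch2 (-0.58 ± 0.11) and the pathway targets Hey1 (-2.33 ± 0.19) and Nrarp (-1.58 ± 0.21) fell. Hey1 read 8.09, 8.69, 8.36 and 9.02 against 10.03, 10.94, 10.93 and 11.58, with no overlap.

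For the LIF and STAT genes, 7 of 19 rose and 5 fell. The cytokine gene Lif was lower in ductal progenitors, at 8.21, 8.05, 9.15 and 8.90 against 10.50, 10.30, 11.12 and 11.05 (-2.17 ± 0.19, adjusted p = 1.75e-05). The gene of its receptor, Lifr, was higher, at 9.48, 10.74, 10.74 and 10.87 against 6.80, 6.66, 7.11 and 7.33 (3.49 ± 0.23, adjusted p = 3.58e-06). Jak2 rose by 1.40 ± 0.15 and the feedback inhibitor Socs3 by 1.92 ± 0.29, whereas Cish, a target of STAT5, was lower in ductal progenitors (-1.21 ± 0.17) as was the oncostatin M receptor Osmr (-0.69 ± 0.11).

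Of the EGF family, 2 of 19 genes rose and 6 fell, against 11.8% and 10.9% of all genes, so that the rises were near the general share. The receptors Egfr (-1.68 ± 0.12) and Erbb4 (-2.05 ± 0.12), the ligand Hbegf (-1.76 ± 0.16) and the feedback inhibitor Spry2 (-1.84 ± 0.14) were lower in ductal progenitors. Egfr read 7.97, 7.48, 7.98 and 7.88 against 9.56, 9.32, 9.60 and 9.53. The ligand Nrg4 rose (1.75 ± 0.13), as 7.07, 7.49, 8.49 and 8.82 against 6.10, 6.24, 6.06 and 6.46, with the higher values in the knockouts. Erbb3, at 10.73 to 11.57 and 10.68 to 11.22, did not pass (0.22 ± 0.13, adjusted p = 0.27).

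Among FGF and IGF genes, 2 of 19 rose and 5 fell, against 11.8% and 10.9% of all genes, so that the rises were near the general share. Fgfr2, a receptor needed for branching of the gland, read 11.77, 12.05, 12.55 and 12.25 in ductal progenitors, against 9.63, 8.20, 8.66 and 8.88 in alveolar progenitors (3.31 ± 0.24, adjusted p = 5.77e-06). Fgfr3 (-1.22 ± 0.18), the receptor Igf1r (-1.55 ± 0.14) and the binding protein Igfbp5 (-2.07 ± 0.20) fell, and the insulin receptor Insr rose (1.16 ± 0.13). Of the TGF-beta and BMP genes, 5 of 26 rose and 8 fell. The ligand Tgfb1 rose (2.27 ± 0.12), as 8.95, 9.12, 8.70 and 8.23 against 6.70, 6.52, 6.48 and 6.24, while Tgfb2 (-1.80 ± 0.21), Tgfb3 (-1.43 ± 0.29) and the co-receptor Tgfbr3 (-1.73 ± 0.17) fell. Id3, a target of BMP signalling, rose by 1.70 ± 0.26. Without the ductal array of wild type 1, the falling genes numbered 5 in the TGF-beta and BMP list, 3 in the FGF and IGF list and 3 in the LIF and STAT list, and the rising genes were as many as with it.

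**Figure D4:**
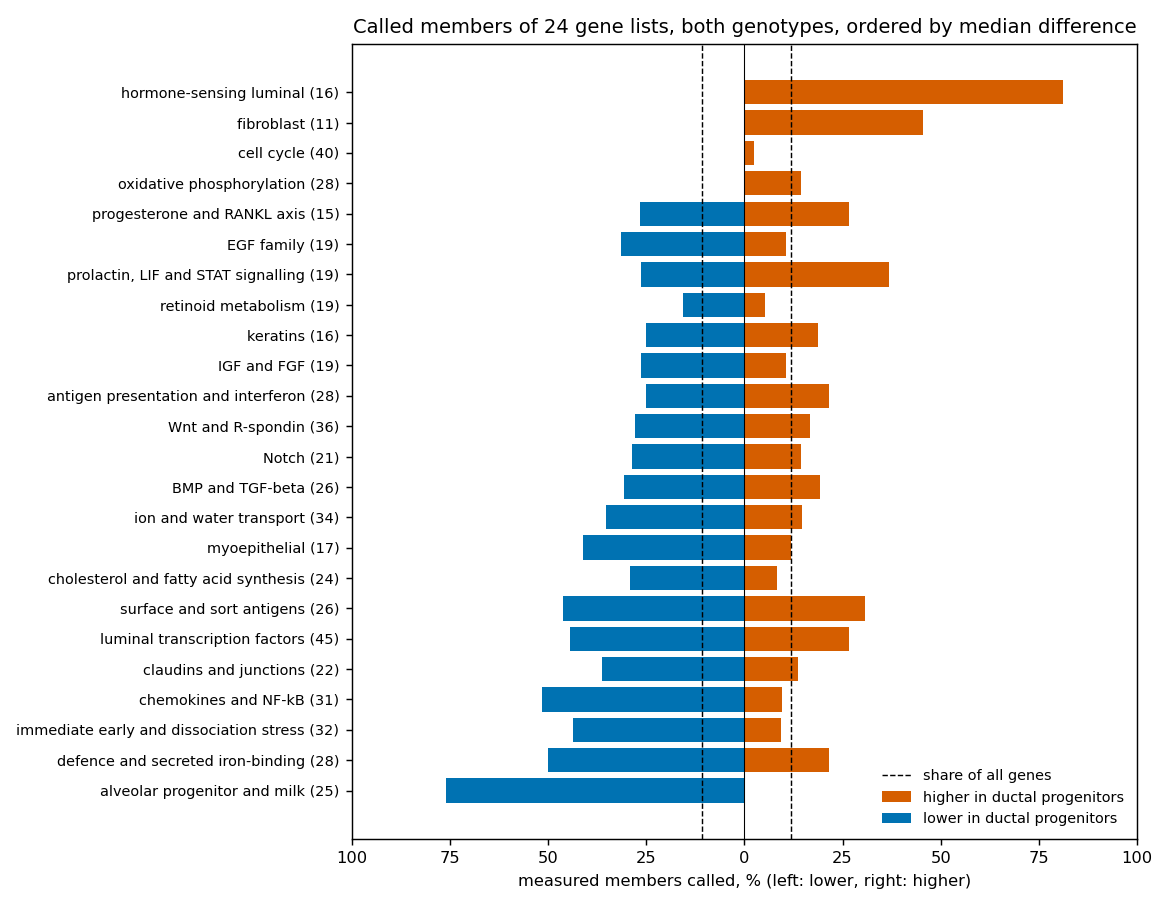
Share of the measured members of 24 gene lists that were called higher (right, orange) or lower (left, blue) in ductal progenitors over both genotypes, with the number of measured members in brackets and dashed lines at the share of all genes (11.8% higher, 10.9% lower). The hormone-sensing list has called members on the right alone and the alveolar and milk list on the left alone, and most signalling lists have called members on both sides.

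Ion transport genes went both ways. Of 34 measured, 5 rose and 12 fell, against 11.8% and 10.9% of all genes. The sodium-iodide symporter Slc5a5 read 8.51, 10.86, 12.41 and 12.57 on the ductal and 7.23, 6.36, 7.51 and 8.82 on the alveolar arrays (3.61 ± 0.41, adjusted p = 0.000109), with the ductal array of wild type 1 the lowest of the ductal arrays. Foxi1, Atp6v1b1 and Car2 fell together with the potassium channel genes Kcne3 (-2.50 ± 0.17) and Kcnn4 (-2.41 ± 0.21) and the chloride channel gene Clic6 (-2.36 ± 0.10). Kcne3 read 5.13, 5.14, 5.31 and 5.04 against 6.50, 6.89, 9.17 and 8.06, near the lower quartile in every ductal sample.

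Of 22 junction genes, 3 rose and 8 fell, against 11.8% and 10.9% of all genes, so that the rises were near the general share. Without the ductal array of wild type 1 the counts were 3 and 4. Cldn10, a pore-forming claudin, read 10.52, 10.54, 10.83 and 10.68 against 7.26, 6.47, 6.78 and 6.71 (3.84 ± 0.15, adjusted p = 5.2e-07), and Cldn6 rose as well (2.59 ± 0.28). Cldn1, a barrier-forming claudin, was lower in ductal progenitors, at 9.13, 8.75, 7.83 and 8.28 against 11.18, 10.92, 11.18 and 11.18 (-2.62 ± 0.14, adjusted p = 1.17e-06), as were Cldn23 (-1.76 ± 0.14) and the connexin gene Gjb2 (-2.10 ± 0.26).

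Of 16 keratin genes, 3 rose and 4 fell. Krt8, a keratin of all luminal cells, was high in both populations, at 12.38 to 12.46 in ductal and 12.42 to 12.49 in alveolar progenitors, and did not pass the test (-0.07 ± 0.08, adjusted p = 0.642). Krt6a rose by 3.16 ± 0.29, with ductal values of 6.52, 8.43, 9.10 and 8.85 and alveolar values of 5.02, 5.10, 5.26 and 4.89, which lay at about the lower quartile and bound the difference. Its other probe sets rose by 1.64 ± 0.20 and 1.01 ± 0.16. The myoepithelial keratins Krt14 (-0.69 ± 0.11) and Krt5 (-0.63 ± 0.11) fell slightly. Their levels in both progenitors (6.38 to 6.82 and 6.95 to 7.42 for Krt14) were far below those of myoepithelial cells (12.50 to 12.68).

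Of 19 retinoid genes, 1 rose and 3 fell, against 11.8% and 10.9% of all genes. Crabp2, which carries retinoic acid to the nucleus, was high in both populations and higher in alveolar progenitors, with 9.76, 10.05, 10.03 and 10.08 against 12.14, 11.97, 12.42 and 12.20 (-2.20 ± 0.19, adjusted p = 2.03e-05). The retinol carrier Rbp4 rose by 1.53 ± 0.20.

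Defence and secreted genes were divided, with 6 of 28 higher and 14 lower in ductal progenitors. Dmbt1, a mucosal scavenger receptor protein, read 9.27, 10.66, 11.66 and 12.04 against 6.26, 5.94, 6.70 and 8.42 (4.08 ± 0.32, adjusted p = 9.42e-06). Haptoglobin (Hp) rose by 3.51 ± 0.28, the protease inhibitor Wfdc2 by 2.93 ± 0.20 and the antimicrobial lectin Reg3g by 2.63 ± 0.21. The copper-carrying oxidase ceruloplasmin (Cp) was lower in ductal progenitors (-1.82 ± 0.15).

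Chemokine and NF-kB genes leaned to the alveolar side, where 16 of 31 were higher and 3 lower, with a median difference of -0.41. Csf1, the macrophage growth factor, read 9.27, 8.56, 8.10 and 7.63 on the ductal and 10.34, 9.58, 10.47 and 9.75 on the alveolar arrays (-1.65 ± 0.15, adjusted p = 2.85e-05). The chemokines Cxcl16 (-1.67 ± 0.17) and Ccl5 (-1.48 ± 0.11) and the inflammatory gene Tnfaip2 (-1.70 ± 0.20) fell too, whereas Cxcl17 rose (1.45 ± 0.24). Of 18 leukocyte genes 1 passed the test, and their mean level was 5.42 to 5.66 on the ductal and 5.55 to 5.64 on the alveolar arrays. Immediate early genes, which dissociation of tissue is known to induce, also leaned that way, with 14 of 32 lower and 3 higher in ductal progenitors. Among them Fosl1 was lower in ductal progenitors (-1.84 ± 0.17), as were Nr4a1 (-1.71 ± 0.20) and Dusp6 (-1.31 ± 0.14), whereas the growth-arrest genes Gadd45g (1.99 ± 0.22) and Gadd45a (1.77 ± 0.28) rose. The part of cell handling in these differences was not tested.

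Interferon and antigen presentation genes went both ways, 6 of 28 rising and 7 falling. Ido1, the tryptophan-degrading enzyme, read 10.11, 11.42, 12.38 and 12.48 against 7.27, 6.66, 7.74 and 9.0 (3.94 ± 0.27, adjusted p = 4.53e-06), and the interferon-induced GTPase Iigp1 rose by 1.90 ± 0.33. Ifit2, an interferon-induced RNA-binding protein, was lower in ductal progenitors (-1.99 ± 0.34).

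Lipid synthesis genes fell in 7 of 24 cases and rose in 2, where 10.9% of all genes fell and 11.8% rose. The 2 that rose act in triglyceride synthesis, Dgat2 at its last step (2.84 ± 0.21) and Gpam at its first (1.59 ± 0.13). Dgat2 read 10.30, 9.66, 11.68 and 11.04 on the ductal and 8.19, 7.50, 7.68 and 7.93 on the alveolar arrays. The desaturase Scd1 (-0.94 ± 0.18) and the isoprenoid enzyme Idi1 (-1.02 ± 0.22) fell. Of 28 respiratory chain genes, 4 rose and 0 fell, and without the ductal array of wild type 1 neither count was above 0.

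Few cell cycle genes passed the test. Of 40 measured, 1 rose, Aurka, a mitotic kinase (1.19 ± 0.24, adjusted p = 0.00406), and 0 fell. Without the ductal array of wild type 1 the counts were 1 and 2, and without all arrays of that mouse 3 and 9. Both wild-type arrays were above both knockout arrays in each population. The mean level of the list was 9.18 and 8.52 on the wild-type ductal arrays and 6.85 and 6.45 on the knockout ones, against 7.79 and 8.95 and then 6.90 and 6.59 on the alveolar arrays. The list's median difference was 0.56 in wild types (-0.07 without the ductal array of wild type 1) and -0.14 in knockouts, and over both genotypes it was 0.23 with and -0.06 without the ductal array of wild type 1. The wild types went opposite ways, with mean levels of 9.18 against 7.79 in wild type 1 and 8.52 against 8.95 in wild type 2. The ductal array of wild type 1 was level with the non-clonogenic array of that mouse (9.20).

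The antigens of the sort were measured as RNA. Epcam was high in both populations, at 12.22 to 12.47 in ductal and 12.45 to 12.64 in alveolar progenitors, and did not pass the test (-0.19 ± 0.07, adjusted p = 0.0664). Itga2, which encodes CD49b and should be present on both, was lower in ductal progenitors, with 7.86, 7.52, 7.68 and 7.57 against 8.71, 8.58, 8.94 and 8.81 (-1.10 ± 0.16, adjusted p = 0.000548), and lay at 6.59 to 7.07 in the CD49b-negative non-clonogenic cells. Itga6, which encodes CD49f, was higher in ductal progenitors by 0.49 ± 0.12 (adjusted p = 0.0115), a call lost when the ductal or alveolar array of knockout 2, or the alveolar array of wild type 1, was left out (difference 0.41 to 0.45, adjusted p = 0.056 to 0.0727), and without the whole of knockout 1 (0.58, adjusted p = 0.0819) or knockout 2 (0.40, adjusted p = 0.225). Sca1 was not analysed here. Of 26 surface genes, 8 rose, including Cd200 (2.76 ± 0.15), an inhibitory ligand for myeloid cells, and 12 fell, including the hyaluronan receptor Cd44 (-1.84 ± 0.18).

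Some markers of other cell types moved with the comparison. Of 11 fibroblast genes, 5 rose and 0 fell, with a median of 1.08 (1.78 in wild types and 0.33 in knockouts). Without the ductal array of wild type 1, 6 rose and the median was 0.49, or 0.67 in wild types. Of the genes that rose, Dpt and Fn1 lost their calls without the ductal array of knockout 2, the alveolar array of wild type 1 or that of knockout 1, and Dpt also without the ductal array of knockout 1 (adjusted p = 0.0581 to 0.0799). Col3a1, a fibrillar collagen, read 11.40, 9.72, 9.15 and 8.90 against 8.18, 7.39, 7.49 and 6.94 (2.29 ± 0.24 with and 2.12 without that array), and the proteoglycan gene Dcn read 10.29, 9.63, 8.23 and 8.00 against 7.06, 6.37, 7.15 and 7.05. Of 6 fat and red cell genes, 1 fell. It was Hba-a1, a haemoglobin chain, which read 9.70, 10.71, 10.14 and 10.23 against 11.56, 11.49, 11.16 and 11.16 (-1.14 ± 0.15, adjusted p = 0.000288). Of 12 vessel genes, Vwf (2.25 ± 0.14) and Eng (1.5 ± 0.19) rose and none fell. Of 17 myoepithelial genes, 2 rose, including the caveolae protein Cav1 (2.22 ± 0.20), and 7 fell, including Oxtr, the oxytocin receptor (-1.12 ± 0.11). The part of other cells in these differences was not tested.

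Each ductal level was then set against the midpoint of the non-clonogenic luminal and alveolar levels of the same animal. This difference passed the test for 417 genes above the midpoint (2.44% of those tested) and 210 below it (1.23%), and it was at least 2-fold for 151 of the former and 4 of the latter. The largest positive values belonged to Wnt5a (2.49 ± 0.23, adjusted p = 0.000464), Cers6 (2.33 ± 0.21), Prss23 (2.32 ± 0.18) and Plac8 (2.29 ± 0.21), followed by Cdo1, Fgg, Agtr1a and Tlcd4. The largest negative values were those of Hbb-b2 (-1.17 ± 0.18), a haemoglobin chain, the acetyl-CoA synthetase Acss1 (-1.09 ± 0.16), Foxi1 (-1.01 ± 0.12) and Slc5a1 (-1.0 ± 0.14), with Cyp2d22, the peptide-processing enzyme Cpe, Kcne3 and Cnksr3 next. The value of Acss1 rests on a single probe set, whose ductal minus alveolar difference was -2.49 ± 0.18. Its other probe sets gave -0.27 ± 0.10 and -0.05 ± 0.06, and neither passed the test. Elf5 deviated by -0.04 ± 0.19 (adjusted p = 0.97) and Sox10 by -0.38 ± 0.12 (adjusted p = 0.123), neither passing the test. Where one of the outer populations lay under the lower quartile on all arrays, as for Prss23 in alveolar progenitors and for Kit and Foxi1 in non-clonogenic luminal cells, the midpoint is set in part by the background. Among genes lower in ductal than in alveolar progenitors, Igfbp5 (1.01 ± 0.17, adjusted p = 0.00979) and Aldh1a3 (0.87 ± 0.17, adjusted p = 0.0171) still lay above the midpoint. Of the hormone-sensing list 10 genes of 16 lay above it and 0 below, and of the alveolar and milk list 5 of 25 above and 0 below. The midpoint shares its ductal and alveolar arrays with the difference described first.

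In wild types alone, 1148 genes (6.71%) were higher and 1169 (6.84%) lower in ductal progenitors, and in knockouts alone 1606 (9.39%) were higher and 1398 (8.18%) lower. The 2 genotypes share no array, but they were fitted together with a shared estimate of the spread of each gene. Their calls are therefore not independent. Of the genes called in either, 1343 were called in both with the same direction, which is 58% of the wild-type calls and 44.7% of the knockout calls, and 6 were called in opposite directions. Across all genes the differences of the 2 genotypes correlated at 0.704, a description over genes that are not independent. Among the hormone-sensing genes 11 of 16 rose in wild types and 12 in knockouts, and of the alveolar and milk genes 18 of 25 fell in wild types and 19 in knockouts. The median of that list was -1.24 in wild types and -1.89 in knockouts. Kit differed by -1.73 ± 0.23 in wild types and -3.68 ± 0.23 in knockouts, and the test of the change between genotypes gave an adjusted p of 0.0515. With the ductal array of wild type 1 left out, the wild-type count fell from 2317 to 1179 genes, with the alveolar array of wild type 1 left out to 1060, and with that of wild type 2 left out to 1181. The knockout count fell from 3004 to between 1482 and 1889 when any 1 of the 4 knockout arrays compared was left out.

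**Figure D5:**
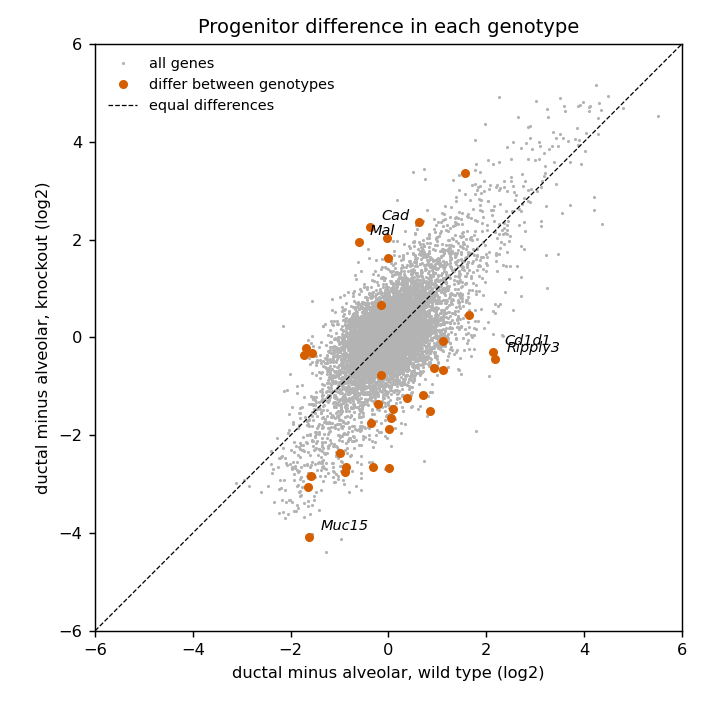
Difference between ductal and alveolar progenitors (log2) in wild types (x axis) and in knockouts (y axis) for 17097 genes, with the 33 genes whose difference changed between genotypes in orange. Most genes lie along the dashed line of equal differences, Muc15 lies far below it, and Cd1d1 and Ripply3 are higher in ductal progenitors of wild types alone.

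The test of the difference between genotypes was passed by 33 genes (0.193%), 10 with a higher and 23 with a lower value in knockouts, and by 2979 genes at an unadjusted p under 0.05. Cd1d1, which presents lipid antigens to natural killer T cells, read 9.67, 9.55, 7.60 and 7.53 on the ductal and 7.52, 7.43, 7.74 and 7.99 on the alveolar arrays, so that the wild-type ductal arrays alone stood out (knockout minus wild type -2.44 ± 0.27, adjusted p = 0.0158). Ripply3, a transcriptional repressor of the developing pharynx, showed the same layout with 8.08, 7.57, 5.16 and 5.47 against 5.41, 5.87, 5.75 and 5.78 (-2.63 ± 0.33, adjusted p = 0.0236). Muc15, a membrane mucin, was lower in ductal progenitors in both genotypes, but by -1.62 ± 0.21 in wild types and -4.08 ± 0.21 in knockouts, with ductal values of 8.76, 8.13, 5.28 and 5.50 against 9.82, 10.30, 9.35 and 9.60 (-2.46 ± 0.29, adjusted p = 0.0235).

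In Cnmd and Atp6v1c2 the alveolar arrays carried the change. In Cad and Mal the knockout arrays were higher in ductal and lower in alveolar progenitors than the wild-type arrays. Cnmd, which encodes the secreted protein chondromodulin of cartilage, read 7.02, 6.90, 5.64 and 5.66 in alveolar and 5.51, 5.27, 5.34 and 5.33 in ductal progenitors (1.25 ± 0.13, adjusted p = 0.0158), and the proton pump subunit Atp6v1c2 read 6.35, 6.75, 4.86 and 4.73 in alveolar progenitors against 4.77, 4.96, 4.54 and 4.62 in ductal progenitors, all of the latter under the lower quartile (1.47 ± 0.16, adjusted p = 0.0158). In both, the wild-type alveolar arrays were the high ones. The pyrimidine synthesis gene Cad was higher in ductal progenitors of knockouts alone, with 9.11, 8.71, 9.94 and 10.19 against 9.73, 8.83, 7.42 and 8.19 (2.63 ± 0.34, adjusted p = 0.0257), and so was the membrane raft protein Mal, with 8.77, 9.41, 10.78 and 10.67 against 9.69, 9.69, 8.62 and 8.94 (2.55 ± 0.33, adjusted p = 0.0257). The deubiquitinase Usp45 (-1.78 ± 0.20), Fam47e (-0.62 ± 0.08) and the cytokine Il18 (-1.20 ± 0.16) were the others among the 10 genes with the smallest p-values. All 8 values of Fam47e (3.83 to 3.93 in ductal and 3.97 to 4.70 in alveolar progenitors) and all 4 alveolar values of Il18 (4.37 to 4.90) lay under the lower quartile, so that these changes cannot be told from the background or are bounded by it. The change of Il18 passed neither without the mouse as a block (adjusted p = 0.135) nor with it as a random block (adjusted p = 0.106), and that of Cad passed in neither as well (adjusted p = 0.121 and 0.0963). By limma with eBayes without a trend, Ripply3 (adjusted p = 0.0521), Il18 (adjusted p = 0.0521) and Fam47e (adjusted p = 0.081) did not pass. Usp45 did not pass with the mean of its probe sets (-1.19, adjusted p = 0.0568).

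The count of such genes depended on single libraries. Without the ductal array of wild type 1 the test was passed by 1 gene, which was none of the 33, and without that of wild type 2 by 711 genes, which held all 33. Without either knockout ductal array or the alveolar array of knockout 1, 0 genes passed by limma. Without the alveolar array of wild type 1 it was 5 genes, 3 of them among the 33, and without that of knockout 2 it was 5 genes, 1 of them among the 33. For Cd1d1 the difference was -2.71 to -2.17 when any 1 of the 8 arrays was left out, although the adjusted p then ranged up to 0.129, and for Muc15 it was -2.53 to -2.10 over the 5 of those fits in which the call was lost.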

How the data were processed

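RNA of freshly sorted mammary cells (15 ng, amplified) was hybridised to Affymetrix mouse arrays, per the labels' protocols. The values are deposited by the authors as log2 expression, 1 column per array, made with RMA per the submitters' processing notes, which also name limma. No depth applies to arrays, and all 16 columns were matched to samples by their titles.

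Of 45141 probe sets, 28898 had 1 gene in the platform annotation, 551 several, 104 were controls and 15588 had none listed, which left 17097 genes after the probe set with the highest mean was taken. Differences were fitted with limma 3.58.1 in R 4.3.3 (lmFit, eBayes with a trend) on all 16 arrays, with the mouse as a block and population within genotype as terms, leaving 6 residual degrees of freedom, and p-values were adjusted by Benjamini-Hochberg over all genes. The fit was tested on simulated data with known differences. In that simulation all populations of an animal shared the same deviation, which was not so in these data. It therefore cannot check the pooled spread described next.

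The pairing comes from the mouse numbers in the labels. Deviations from group means of the ductal and alveolar arrays of an animal correlated at 0.0035 in wild types and 0.14 in knockouts, and those of the ductal and non-clonogenic arrays at 0.563 and 0.577. Each mouse is 1 replicate, with 2 per genotype. With the mouse as a block, differences between animals in general level are removed. The p-values rest on how differences between populations vary among these few animals, pooled over all 16 arrays and both genotypes. That pooled spread need not equal the spread of the ductal and alveolar arrays, whose deviations correlated less. With only the arrays compared, 0 genes passed the genotype test.

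Genes were named by rule: the 15 largest called rises and falls whose arrays do not overlap, up to 8 called and 3 uncalled members of each of 27 gene lists, up to 10 genes for the genotype test by smallest p, the 8 largest deviations each way from the midpoint, and the markers, Cpeb2 and sort antigens. The members and lists were chosen with earlier results of these data known. Alternatives were the block, the arrays fitted, the trend, array weights, probe sets per gene, a filter on low genes, quantile normalization and leaving out an array or a mouse. Motifs were searched in RefSeq promoters (GRCm38.p6), which were matched by symbol.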

Additional observations from a re-analysis of the deposited data

Results flagged for a closer look

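The differences of the 4 animals were examined for single values far from the other 3, over 156 named genes and the medians of 27 lists, and chance alone gives such a value in about 1 of 20 groups. The genes named below for such a value were fewer than that share of the genes examined, and the lists were more. Wild type 1 was the distant animal for Pgr, with a difference of 2.73 against 4.47 to 4.78 in the others, for Cldn10 (3.26 against 3.97 to 4.06), for Atp6v1b1 (-2.04 against -3.19 to -3.12) and for Dpt (4.31 against 0.64 to 1.10). The ductal array of this animal is the one that stood apart with high fibroblast genes, and its part in these values was not tested. Wild type 1 also had the distant median in the EGF list (-0.24), the keratin list (-0.15) and the retinoid list (-0.18), where the other animals lay between -0.02 and 0.04.

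Knockout 1 was the distant animal for Cpeb2, with a difference of 0.94 against 2.37 to 2.54, for Cxcl16 (-1.26 against -1.83 to -1.77) and for the median of the chemokine and NF-kB list (-0.44 against -0.23 to -0.19).

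The difference between ductal and alveolar progenitors changed between genotypes, by the limma test of that change with adjusted p under 0.05, for the following named genes. It was higher in knockouts than in wild types for Cad by 2.63, Mal by 2.55, Atp6v1c2 by 1.47 and Cnmd by 1.25. Knockout minus wild type was -2.63 for Ripply3, -2.46 for Muc15, -2.44 for Cd1d1, -1.87 for Cp, -1.78 for Usp45, -1.76 for Cldn23, -1.42 for Clic6, -1.20 for Il18 and -0.62 for Fam47e, whose values all lay under the lower quartile of the arrays. Both knockouts lay on one side of both wild types for each of them, with 2 animals a genotype. These genes were chosen by that test, which makes such a layout likely, so the layout adds no support.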

How the results depend on the processing

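Of the counts of called genes, that over both genotypes (3879) ranged from 2852 to 3427 when 1 array was left out and from 1977 to 3963 when 1 mouse was left out, the low values coming without a knockout mouse (1977 and 2071). That of wild types (2317) ranged from 1060 to 2028 and from 1341 to 2365, that of knockouts (3004) from 1482 to 3152 and from 921 to 3858, and that of deviations from the midpoint (627) from 224 to 588 and from 91 to 811. The genotype test (33) ranged from 0 to 711 and from 0 to 1774. It gave 0 genes with only the arrays compared, 10 with eBayes without a trend, 137 with array weights and 21 after quantile normalization, and the knockout count was 4573 with array weights. With 2 mice a genotype and the mouse as a block, array weights are equal for both mice of a group, so they changed p-values but no difference and could not lower the weight of the ductal array of wild type 1. The other planned settings moved no count by over 1.5 times. Without the mouse as a replicate block the counts were 3606, 1974, 2694, 37 and 459 for both genotypes, wild types, knockouts, the genotype test and the midpoint, and with the mouse as a random replicate block 3759, 2154, 2844, 41 and 511. Without the block the difference of Cad over both genotypes (adjusted p = 0.0511) and the changes between genotypes of Cad (adjusted p = 0.121) and Il18 (adjusted p = 0.135) did not pass, and Epcam did (adjusted p = 0.0492). Leaving out 1 knockout mouse ended the calls over both genotypes of Aurka, Dpt, Fn1, Fzd7, Idi1, Itga6, Krt4, Krt5, Mal, Notch1, Notch2, Ripply3, Scd1 and Tgfb3 (adjusted p = 0.052 to 0.226), with differences of the same sign (for Krt5 -0.65 and -0.62). Tnfsf11, not called in any setting, changed sign with the mean of its probe sets (0.0743), and ranged from -0.0986 without the ductal array of wild type 1 to 0.0194 without that of wild type 2, with 0.0095 without wild type 2 and 0.0027 without the alveolar array of knockout 1. The causes were not tested. Array number and 2 mice a genotype limit the precision, and values near the lower quartile carry little signal over background.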

Other observations

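Against the midpoint of non-clonogenic luminal and alveolar levels, of 28 defence genes, 8 were above it and 2 below (8 and 0 without the ductal array of wild type 1), and of 34 ion and water transport genes 4 were above and 6 below (5 and 5 without that array). Of all genes, 2.44% passed the test above the midpoint and 1.23% below it. Krt6a, a keratin of stressed and stratified epithelia, lay above the midpoint by 1.52 ± 0.25 (adjusted p = 0.00823) and the ligand Nrg4 by 0.77 ± 0.11 (adjusted p = 0.0051). The receptors Egfr (-0.59 ± 0.10, adjusted p = 0.011) and Erbb4 (-0.81 ± 0.10, adjusted p = 0.00212) and the chemokine Ccl5 (-0.67 ± 0.10, adjusted p = 0.00437) lay below it.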
